A study of Homo sapiens with 33 samples.

Results

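MPP89 is an established malignant pleural mesothelioma (MPM) cell line that is resistant to palbociclib, an inhibitor of CDK4 and CDK6, and its untreated state was set here against that of 4 MPM lines that respond to the drug. The comparison used 13 of the 33 RNA-seq libraries, all from cells grown with the solvent DMSO. They were 2 libraries of MPP89, 2 of H2052, 3 of H2452, 3 of H28 and 3 of MSTO-211H (labelled MSTO), chosen by line and treatment alone. Of the 58302 genes in the matrix, 16871 reached 100 counts per 20000000 reads (CP20M) in at least 1 of the 13 libraries and were tested. DMSO was given for 9 days in both MPP89 libraries, and for 10 days in 1 library of each sensitive line and 9 days in the others.

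According to the study, MPP89 is of epithelioid histology, with altered RB1 and NF2 and an intact CDKN2A/CDKN2B locus. H2052 and H28 are sarcomatoid, H2452 and MSTO-211H are biphasic, and CDKN2A and CDKN2B are deleted in each of these sensitive lines. H2052 also carries altered NF2 and LATS2, H2452 and H28 altered BAP1 and MSTO-211H altered LATS2. MPP89 is thus the only epithelioid line, the only RB1-altered line and a single line with 2 libraries, so that histology, genotype and the identity of the line cannot be told apart. P-values measure the spread between libraries of a line, which the study calls independent experiments, and not the spread between lines. Over the 5 lines themselves an exact permutation test could not give a p below 0.2.

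Mesothelioma arises from the mesothelium that lines the pleura, and its cells can carry epithelial traits such as keratins and mesenchymal traits such as interstitial collagens in varying proportion. CDK4 and CDK6, bound to D-type cyclins, phosphorylate the RB1 product pRb and thereby release E2F factors, which drive the genes of DNA replication. The CDKN2A product p16 blocks CDK4 and CDK6, and cells without functional pRb can divide despite that block. Loss of the 9p21 band that holds CDKN2A and CDKN2B is among the most frequent lesions of MPM.

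A gene was called against every sensitive line when it was on the same side of each of H2052, H2452, H28 and MSTO-211H with a fold change above 1.5 and a Benjamini-Hochberg adjusted p under 0.05 in each of these 4 comparisons (limma). MPP89 was higher than every sensitive line in 1325 genes, 7.85% of those tested, and lower in 475 genes, 2.82%. Of the single lines, MPP89 was higher than H2052 in 27.2% of tested genes and lower in 18.6%. The shares were 32.4% and 20.2% against H2452, 31.5% and 21.5% against H28, and 26.7% and 21.9% against MSTO-211H. Against the mean of these 4 lines the shares were 27.5% and 15.9%. Both MPP89 libraries lay above all 11 sensitive libraries in 14.2% of genes and below all of them in 7.57%.

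The same rule applied to each sensitive line against the other lines, MPP89 included, called 1573 genes for H2052, 2039 for H2452, 2817 for H28 and 1614 for MSTO-211H, so that the 1800 genes of MPP89 were within the range of these lines. The genes called higher were 1325 in MPP89 and between 756 and 1267 in the others. Among the genes higher in MPP89, the difference to the nearest line had a median of 1.38 on the log2(CP20M + 10) scale, and 98 genes exceeded 4. The lower genes were closer to their nearest line, with a median of 0.89, and 7 exceeded 4 in size. H2052 was the nearest line for 35.6% of the higher genes and MSTO-211H for 25.8%. Protein-coding genes were 1065 of the 1325 higher and 375 of the 475 lower genes.

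The tested libraries were alike in scale and each added up to about 20000000 by construction. The number of sequenced reads, recovered for 8 of the 13 libraries from the steps between low values, was 14750000 to 18330000. In MPP89 it was 18330000 and 15410000. Such steps show only below about 20000000 reads, so the other 5 libraries, both of H2052 among them, may be deeper. Replicate libraries were compared over the genes that reached 100 CP20M in at least 1 of them. They had the same value in under 1% of these genes, which left no pair to be counted as 1. Mesothelial markers summed to 4965 and 5151 CP20M in MPP89, within the 567 to 8221 of the sensitive libraries. Among these markers, MSLN (mesothelin) was at 3057 and 2400 CP20M, WT1 was at 202 and 191, and CALB2 (calretinin) was above every sensitive line. The markers did not move together. Of 8 tested, 3 were higher and 3 lower than the mean of the sensitive lines, and 2 were higher and 5 lower than H2052. Leukocyte markers summed to 137 and 166 CP20M, against 0 to 363 in the sensitive libraries, with CD3E at 0 in all 13. Endothelial markers summed to 143 and 172 against 8 to 155, lung epithelium markers to 88 and 112 against 6 to 20, and neuroendocrine markers to 50 and 61 against 11 to 41, the latter with INSM1 at 0 in all 13. No gene of the lung epithelium and neuroendocrine lists reached 100 CP20M, and the part of such cells in the results was not tested. As RNA was taken from whole cultures, fewer cells of a type and less RNA per cell cannot be told apart.

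The 12 protein-coding genes furthest above every sensitive line were KRT17, ACTG2, MYH14, POSTN, CDKN2A, CDKN2B, IGFBP5, FBLN2, ZNF723, OLR1, CD248 and CNN1, which have diverse roles. KRT17 (ENSG00000128422, chr17:41619442-41624842, minus strand), a type I keratin of basal and stressed epithelium, was at 8579 and 4825 CP20M in MPP89. In the 11 sensitive libraries it did not exceed 7. The difference to the nearest line, H2452, was 8.72 on the log2(CP20M + 10) scale (SE 0.27, adjusted p = 1.91e-10). ACTG2 (ENSG00000163017, chr2:73892314-73919865, plus strand), the gamma actin of enteric smooth muscle, was at 7181 and 4570 CP20M against 0 to 10, a difference of 8.27 to MSTO-211H (SE 0.26, adjusted p = 2.14e-10). MYH14 (ENSG00000105357, chr19:50188186-50310542, plus strand) encodes a non-muscle myosin heavy chain. Its MPP89 values were 2173 and 1910 CP20M, and 10 of the 11 sensitive libraries were at 0 with the last at 1.

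POSTN, which encodes the matricellular protein periostin, reached 11798 and 13576 CP20M in MPP89. The sensitive libraries ranged from 0 to 224, and the highest of them was H2452 replicate 2, whose sister libraries were at 11 and 16. The difference to MSTO-211H, the nearest line, was 7.51 (SE 0.80, adjusted p = 7.51e-06). IGFBP5, an insulin-like growth factor binding protein, was at 18902 and 37917 CP20M. Its sensitive values ranged from 0 to 829, again highest in H2452 replicate 2, and the difference to H2052 was 6.68 (SE 1.05, adjusted p = 0.000222). FBLN2 (fibulin 2), CD248 (endosialin, known from pericytes and fibroblasts), OLR1 (a receptor of oxidised low-density lipoprotein), CNN1 (calponin 1) and ZNF723 (a zinc finger gene) differed from their nearest line by 6.34 to 6.68. In each of these the groups were far apart, since the lowest MPP89 value was 823 CP20M and the highest sensitive value was 110.

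A further 7 genes were listed at 0 in all 11 sensitive libraries and at 100 CP20M or more in both MPP89 libraries. The 5 with the highest values in CP20M were CDKN2B, ZFP42, ZNF560, ZNF729 and AC008655.1, and no fold is given for them. No gene showed the converse.

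**Figure D1:**
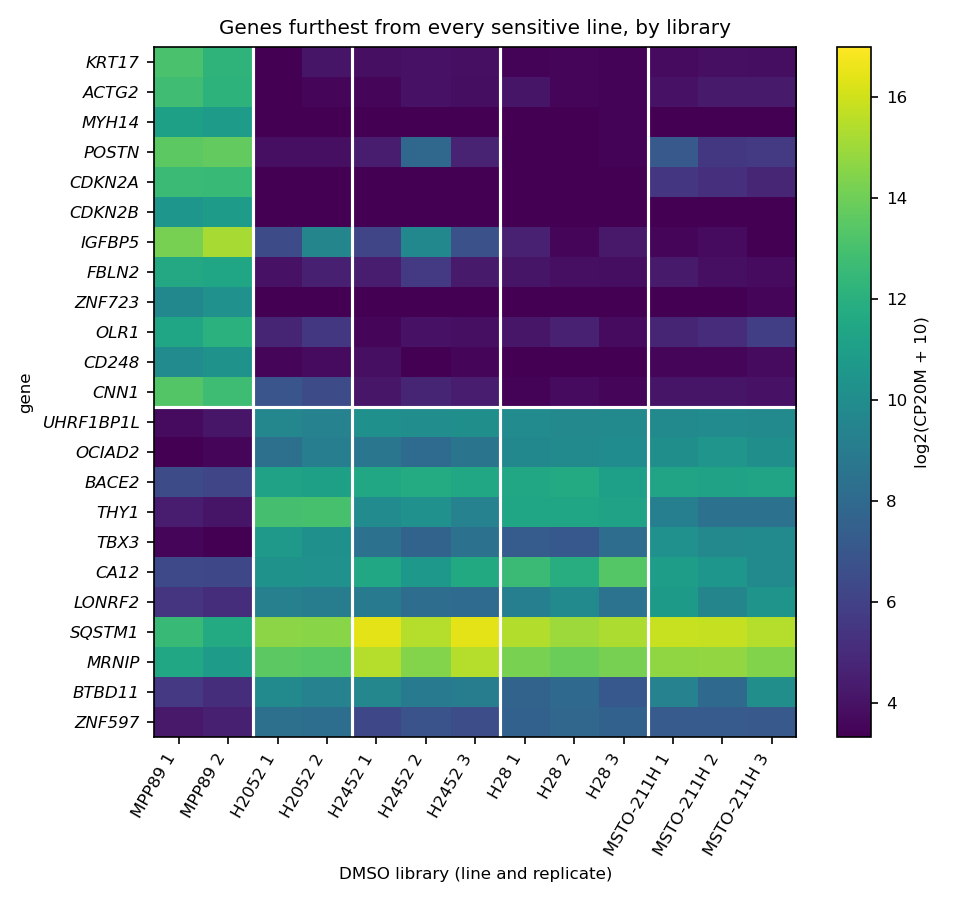
Level of the 12 genes furthest above and of 11 of the 12 furthest below every sensitive line in the 13 DMSO libraries, as log2(CP20M + 10) by colour, with white lines between cell lines and between both sets of genes. KRT17 reads 8579 and 4825 CP20M in MPP89 and at most 7 elsewhere, while OCIAD2 reads 0 and 2 CP20M in MPP89 and at least 268 elsewhere.

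The genes furthest below every sensitive line did not share a single known role. UHRF1BP1L (ENSG00000111647, chr12:100028455-100142874, minus strand) was at 3 and 8 CP20M in MPP89 and between 650 and 1170 in the sensitive libraries, a difference of −5.57 to H2052 (SE 0.17, adjusted p = 2.54e-10). OCIAD2, whose product is a mitochondrial membrane protein, was at 0 and 2 CP20M against 268 to 1406. BACE2, a transmembrane aspartic protease, was at 77 and 63 CP20M against 2078 to 3365. THY1, a surface glycoprotein of fibroblasts, was at 11 and 7 CP20M against 331 to 8148, with H2052 highest and MSTO-211H lowest among the sensitive lines. TBX3, a T-box transcription repressor, was at 2 and 0 CP20M, and its sensitive values spread from 125 in H28 to 1708 in H2052. CA12, a membrane carbonic anhydrase, was at 71 and 69 CP20M, below sensitive values of 904 to 10751.

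SQSTM1, which encodes the autophagy receptor p62, was lowest in MPP89, at 5953 and 3323 CP20M against 23851 to 88818 (difference to H2052 −2.46, SE 0.34, adjusted p = 8.05e-05). MRNIP had nearly the same pattern, with 2898 and 1856 CP20M against 11212 to 46199. Both genes overlap on opposite strands, and the sources do not state whether the counting used strand, so reads of one may have been counted for the other. LONRF2, BTBD11 and ZNF597 differed from their nearest line by −3.18, −2.22 and −2.18.

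Interferon-stimulated genes are switched on after type I interferon, and their products restrict viruses or sense foreign nucleic acid. All 38 genes of this list were tested. MPP89 was higher than every sensitive line in 18 of them and lower in none, beside the background of 7.85% for higher calls. IFI44L (ENSG00000137959, chr1:78619902-78646145, plus strand) was at 2464 and 3741 CP20M in MPP89. It was at 0 in both H2052 libraries, at 32, 283 and 412 in H2452, at 3 to 14 in H28 and at 25 to 63 in MSTO-211H. The difference to H2452 was 4.14 (SE 0.74, adjusted p = 0.000399). IFITM1, a membrane protein that hinders viral entry, was at 2964 and 3892 CP20M against 5 to 657, and differed from H2452 by 3.22 (SE 0.63, adjusted p = 0.000789). IFI6 was at 8757 and 9447 CP20M against 5 to 2592, and ISG15, a ubiquitin-like modifier, was at 4653 and 3934 CP20M against 63 to 1200. In these genes both MPP89 libraries exceeded all 11 sensitive libraries.

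The start regions of these 4 genes are shown because they carry the motif that interferon-activated factors recognise. The sequences are the RefSeq promoters on GRCh38, 250 bases before to 50 bases after the start of the gene, written 5′ to 3′ on the strand of the gene. The RefSeq start used for a promoter can differ from the outermost GENCODE start printed for a gene, and it lies downstream of that for each gene whose promoter is shown here, ACTG2 included. Capitals mark matches to GAAANNGAA, searched on both strands. The regions are chr1:78620198-78620497, plus strand for IFI44L, chr11:313790-314089, plus strand for IFITM1, chr1:27672143-27672442, minus strand for IFI6 and chr1:1013247-1013546, plus strand for ISG15.
IFI44L: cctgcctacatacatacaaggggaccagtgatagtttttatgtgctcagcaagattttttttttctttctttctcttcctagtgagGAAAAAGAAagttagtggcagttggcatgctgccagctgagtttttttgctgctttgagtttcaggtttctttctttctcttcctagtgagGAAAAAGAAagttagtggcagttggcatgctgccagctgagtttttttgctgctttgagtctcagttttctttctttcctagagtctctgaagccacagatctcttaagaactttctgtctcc
IFITM1: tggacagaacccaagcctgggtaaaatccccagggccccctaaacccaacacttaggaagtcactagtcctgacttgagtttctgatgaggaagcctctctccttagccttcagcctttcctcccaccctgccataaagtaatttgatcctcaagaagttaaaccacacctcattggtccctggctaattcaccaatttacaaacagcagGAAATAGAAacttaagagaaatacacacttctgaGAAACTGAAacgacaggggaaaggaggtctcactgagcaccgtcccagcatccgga
IFI6: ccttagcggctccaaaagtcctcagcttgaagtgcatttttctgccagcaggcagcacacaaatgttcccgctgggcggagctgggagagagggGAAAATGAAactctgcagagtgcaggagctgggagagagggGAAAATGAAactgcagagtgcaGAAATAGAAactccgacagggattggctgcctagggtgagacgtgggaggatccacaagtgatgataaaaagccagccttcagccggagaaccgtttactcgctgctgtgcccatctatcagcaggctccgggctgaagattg
ISG15: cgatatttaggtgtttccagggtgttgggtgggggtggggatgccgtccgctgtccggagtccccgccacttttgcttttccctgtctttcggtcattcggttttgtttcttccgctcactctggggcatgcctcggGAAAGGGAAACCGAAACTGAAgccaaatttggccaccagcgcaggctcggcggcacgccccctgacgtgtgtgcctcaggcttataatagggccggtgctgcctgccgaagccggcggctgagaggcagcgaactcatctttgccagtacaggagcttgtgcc
The match nearest to the gene start lay 73 bases before it in IFI44L, 6 in IFITM1, 93 in IFI6 and 101 in ISG15, where 3 matches overlap. The motif was present in 21 of the 29 listed genes with a promoter in the table (72.4%), compared with 8.62% of the promoters of all tested genes and 8.11% of all promoters in the table. It was found in 10 of 12 called genes and in 11 of 17 that were not called, so that the listed genes held it on both sides of the call. A match of letters is not a measured binding site.

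The list as a whole stood higher in MPP89. Its median difference to the lines' mean, on the log2(CP20M + 10) scale, was 2.60, compared with 0.11 over all tested genes, and 36 of 38 genes were called higher than that mean. The summed level of the list was 97855 and 104251 CP20M in MPP89. It was 19708 and 24122 in H2052, 10469 to 15447 in H28 and 22302 to 26083 in MSTO-211H. H2452 came closest, at 31792, 66791 and 71301 CP20M, with replicate 1 well below its sister libraries. MPP89 was higher than H28 in 35 genes, than H2052 in 33 and than MSTO-211H in 33, but than H2452 in 19. Of the 20 listed genes that were not called, 19 did not pass against H2452. BST2 (tetherin) was at 3946 and 4343 CP20M in MPP89 and at 2280, 4726 and 3808 in H2452, with at most 51 in the other lines. IFIT3 was at 2391 and 2113 CP20M, beside 2356 to 4531 in H2452.

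The count of 18 depended on which libraries were used. It was 30 without the line H2452, 14 without H2452 replicate 1, 11 without MPP89 replicate 1 and 8 without MPP89 replicate 2. IFNB1, which encodes interferon beta, did not exceed 6 CP20M in any of the 13 libraries and was not tested. None of the 18 tested genes of MHC class I antigen presentation, many of which also respond to interferon, was called against every sensitive line in either direction. Against the mean of the lines, 11 of them were higher and 3 lower. MPP89 was higher than H2052 in 13, than H28 in 13 and than MSTO-211H in 7. It was higher than H2452 in none and lower in 7. CCL5, a chemokine, was called higher, at 340 and 444 CP20M against 1 to 81.

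**Figure D2:**
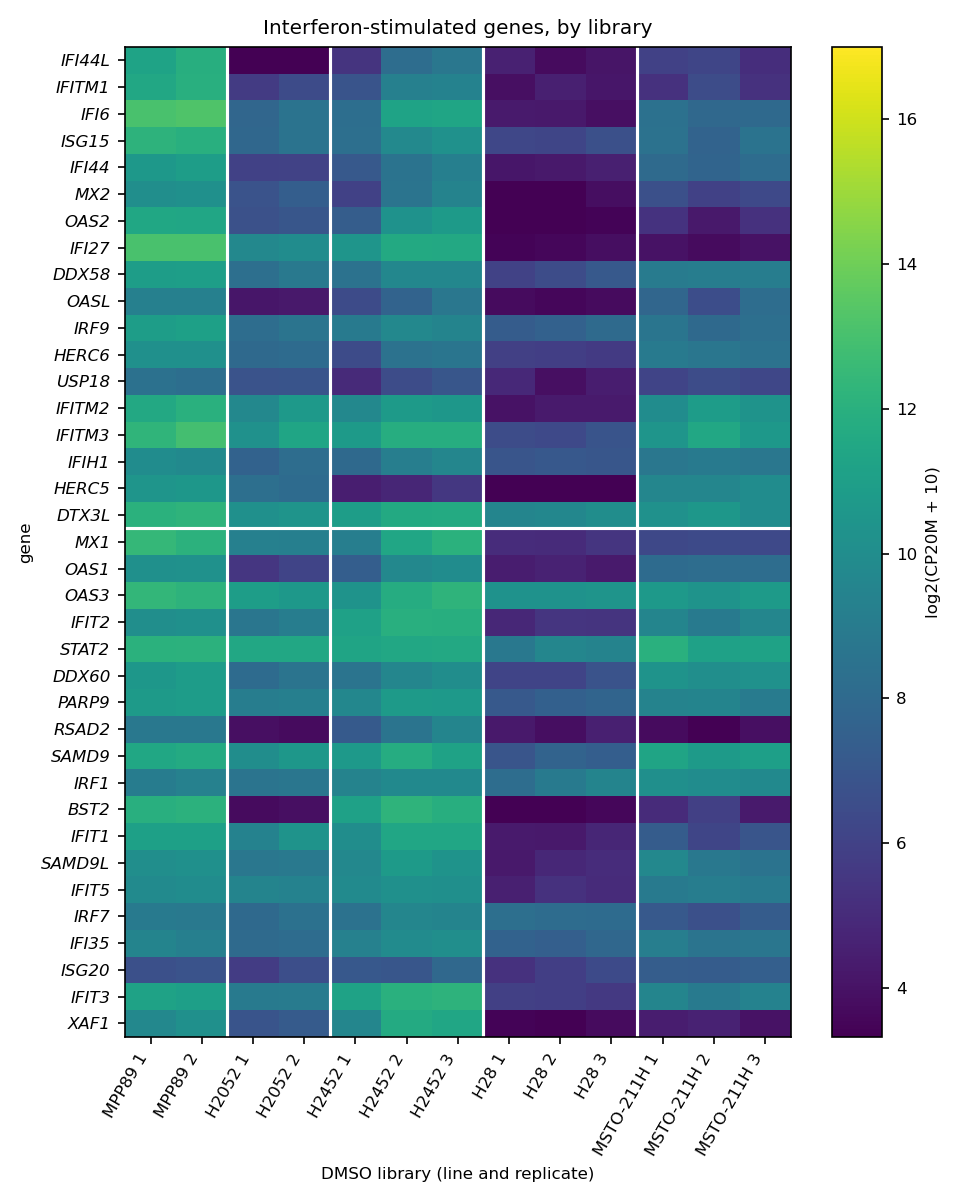
Level of 37 of the 38 interferon-stimulated genes in the 13 DMSO libraries, as log2(CP20M + 10) by colour, with the 18 genes called higher than every sensitive line above the horizontal white line. The columns of MPP89 are brightest among the called genes, and H2452 replicates 2 and 3 come nearest to them.

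Genes of the smooth muscle contractile apparatus are induced by serum response factor and its partners and also mark myofibroblasts. The list of 20 such genes was drawn up after ACTG2 and CNN1 had been seen, so that its counts are a description. Of 18 tested, 11 were higher than every sensitive line and none lower, and the median difference to the mean of the lines was 2.35. Over all tested genes, 7.85% were higher and 2.82% lower, and that median was 0.11. Against H28 alone, 14 of the 18 were higher and 2 lower. ACTA2, smooth muscle alpha actin, was at 10453 and 8743 CP20M against 17 to 548 (difference to H2052 4.17, SE 0.50, adjusted p = 2.81e-05). Its antisense gene ACTA2-AS1, which overlaps it, followed at 5843 and 4796 CP20M against 10 to 262, and reads of both cannot be told apart without strand. TAGLN (transgelin) was at 7972 and 5511 CP20M against 45 to 1695. MYL9, a regulatory myosin light chain, was at 9690 and 8430 CP20M, with 3673 and 4097 in H2052 and 2 to 1159 in the other lines.

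The actin-binding proteins FLNA (filamin A) and ACTN1 (alpha-actinin 1) differed less, by margins of 1.01 and 0.87 to the nearest line. Some members of the list were not called or not tested. MYH11, smooth muscle myosin heavy chain, was at 282 and 261 CP20M in MPP89 and 289 and 224 in H2052. SMTN (smoothelin) was at 1425 and 1058 CP20M, inside the sensitive range of 404 to 3328. MYOCD, the myocardin coactivator of smooth muscle genes, did not exceed 11 CP20M, and DES (desmin) was at 78 and 84 CP20M against at most 5, both under the level needed for a test. With the 9-day libraries alone, 7 genes of this list were called.

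The start region of ACTG2, which had the largest margin of this list, is shown for its CArG boxes, the site of serum response factor. It lies at chr2:73892758-73893057, plus strand (RefSeq, GRCh38), with the boxes in capitals.
ACTG2: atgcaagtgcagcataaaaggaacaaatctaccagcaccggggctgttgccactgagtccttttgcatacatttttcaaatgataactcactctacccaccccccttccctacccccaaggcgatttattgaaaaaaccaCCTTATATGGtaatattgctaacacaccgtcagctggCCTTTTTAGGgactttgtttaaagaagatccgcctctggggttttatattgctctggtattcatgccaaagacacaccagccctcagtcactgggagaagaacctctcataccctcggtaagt
The box nearest to the start was 73 bases before it. CArG boxes were found in the same window of 5 of the 15 contractile genes with a promoter (33.3%), and in 1.55% of the promoters of all tested genes and 1.29% of all promoters in the table.

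Several collagen genes had their highest level in MPP89. Of 20 collagen genes tested, 6 were higher than every sensitive line and none lower, with a median difference of 2.16 to the mean of the lines. Over all tested genes, 7.85% were higher and 2.82% lower, and that median was 0.11. Against single lines, 3 collagens were lower than H2052, 3 than H2452, 3 than H28 and 1 than MSTO-211H. COL1A1, the alpha 1 chain of collagen I, was at 88853 and 70498 CP20M, and the sensitive libraries ranged from 88 in H28 to 4811 in H2052. COL3A1 was at 50901 and 48987 CP20M against 0 to 3906. COL5A2 was at 11612 and 15222 CP20M against 22 to 4277, and COL16A1 was at 1170 and 943 CP20M against 20 to 149. COL5A1 was called with a margin of 1.59 to H2452 (SE 0.64, adjusted p = 0.0458), whose replicate 2 stood at 24067 CP20M beside 12973 and 8818.

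COL1A2 encodes the alpha 2 chain that normally joins the COL1A1 product in collagen I, and it did not follow. It was at 221 and 329 CP20M in MPP89, below the 1300 and 1136 of H2052 and the 3000 to 20006 of H2452, and above the 0 to 4 of H28 and MSTO-211H. Without H2452 replicate 2, whose matrix genes stood high, the same number of collagens was called. The number was 5 without H2452 replicate 1 or 3, with the replicate number as a block in the fit, and under median-of-ratios scaling.

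The other mesenchymal and EMT genes were mixed. Of 27 tested, POSTN, ACTA2, TAGLN, ITGA5 and LOXL1 were higher and THY1 was lower, beside 7.85% and 2.82% of all tested genes. Without MPP89 replicate 1 the count of higher genes was 3. Among 5 fibroblast markers, LUM (lumican) was at 840 and 1907 CP20M against 0 to 88. DCN (decorin) was called at 28 and 133 CP20M against 0 to 21, and its MPP89 libraries differed widely. The summed fibroblast markers were 2402 and 3821 CP20M in MPP89, within the sensitive range of 670 to 9382. Of 28 integrins and laminins, 4 were higher and none lower, among them ITGA11, ITGA5 and LAMC1, beside the same background shares. Against single lines, 10 to 14 of the 28 were higher and 5 to 8 lower. With the replicate number as a block in the fit, 3 were higher than every sensitive line.

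Epithelial genes were split as well. Of 10 keratins tested, KRT17, KRT81, KRT7 and KRT86 were higher than every sensitive line and none was lower, beside 7.85% and 2.82% of all tested genes. KRT7 was at 36778 and 28925 CP20M, with 3430 to 12716 in H2052 and H2452 and 29 to 50 in H28 and MSTO-211H. KRT81 and KRT86 are near-identical neighbours whose reads the counting could split. KRT8 and KRT18, the keratins of simple epithelium, were at the upper end in MPP89 without being called, and KRT8 stood at 47113 and 45602 CP20M against 5157 to 41387. KRT19 was nearly silent at 9 and 13 CP20M, as in MSTO-211H with 5 to 7, while the other lines had 3334 to 26295.

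CDH1 (E-cadherin) was at 783 and 1076 CP20M in MPP89 and at most 5 in the sensitive libraries (difference to H2052 6.00, SE 0.20, adjusted p = 5.27e-10). CDH3 (P-cadherin), its neighbour on chromosome 16, was at 536 and 566 CP20M against 0 to 49. The tight junction gene CLDN1 went the other way, at 294 and 356 CP20M against 631 to 6405. These were the only calls among 18 epithelial genes tested. EPCAM, an epithelial adhesion molecule, was at 27 and 26 CP20M and did not reach the level for a test. CALB2 was the only mesothelial marker called among 8 tested, at 659 and 1577 CP20M against 0 to 117.

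On 9p21, MPP89 expressed a stretch of genes that were low or at 0 in the sensitive lines, to an extent that differed between these lines. Of 15 tested genes of the list, 8 were higher than every sensitive line and none lower, beside 7.85% and 2.82% of all tested genes. As the study gives CDKN2A and CDKN2B as deleted in each sensitive line, their higher calls could be foreseen from the genotype. CDKN2A, CDKN2B and ELAVL2 reached the level for a test only in MPP89, the line where they are high. The count is therefore no result about 9p21 genes as a group. CDKN2A was at 6300 and 5967 CP20M. In the sensitive lines it was at 0, apart from 18 to 34 CP20M in MSTO-211H. CDKN2B, which encodes the related inhibitor p15, was at 1451 and 1880 CP20M, and at 0 in all 11 others. The antisense gene CDKN2B-AS1, which overlaps both, was at 169 and 184 CP20M in MPP89 and at 72 to 97 in MSTO-211H, and without a stated strand setting its reads cannot be told apart from theirs.

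The neighbours showed how far each line differed. MTAP, a purine salvage enzyme gene next to CDKN2A, was at 1285 and 1497 CP20M in MPP89, 1188 to 1198 in H28 and 1274 to 1816 in MSTO-211H, so that MPP89 did not stand apart from these. It was at 0 in H2052 and at 0 to 2 in H2452. H2052 was at 0 for every mapped gene from AL359922.1, next to MTAP, to C9orf72. ELAVL2, which encodes a neuronal RNA-binding protein, was at 595 and 886 CP20M in MPP89 and at most 5 elsewhere. PLAA and IFT74, an adjoining pair, were at 2008 and 1971 and at 708 and 743 CP20M. PLAA was lower in H2452 (798 to 975) and H28 (458 to 658), and close to silent in MSTO-211H (7 to 18). DMRTA1, TEK and TUSC1, the last not on the list, were called in the same direction.

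**Figure D3:**
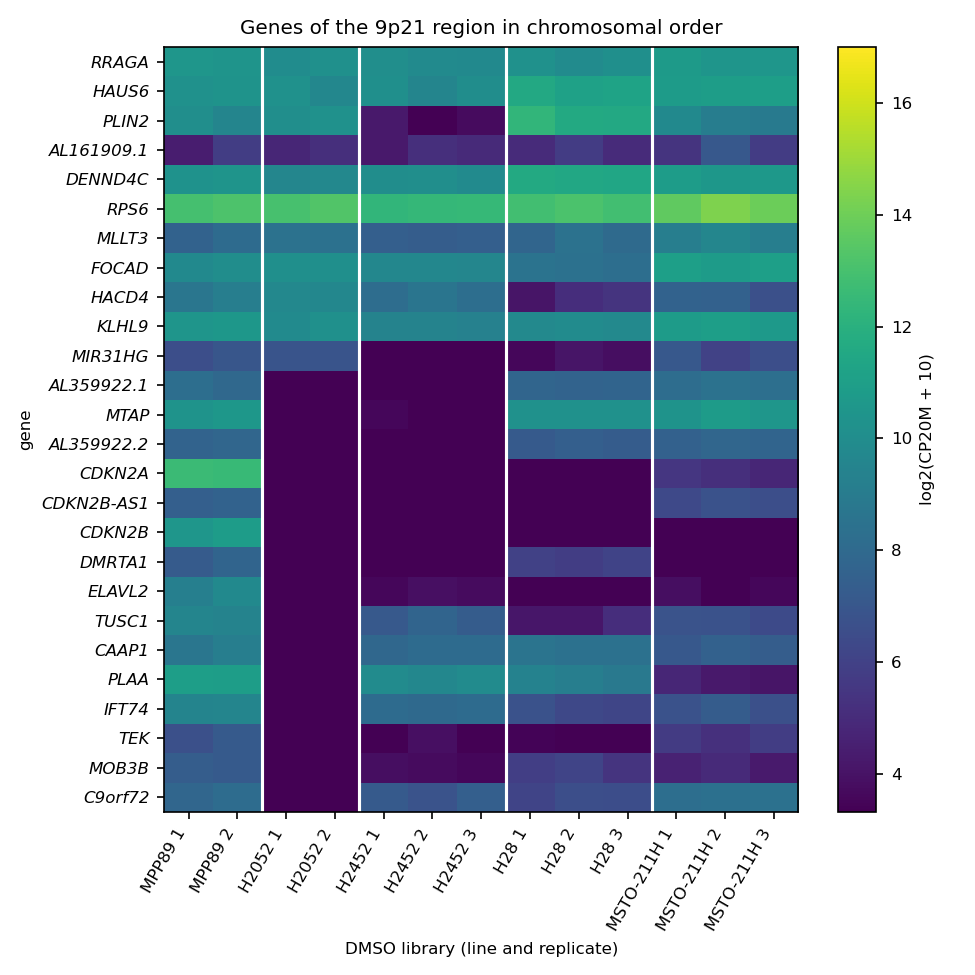
Genes around 9p21 that reached 100 CP20M in any of the 13 DMSO libraries, from top to bottom in the order of their position, with the level as log2(CP20M + 10) by colour. H2052 is dark from AL359922.1 to C9orf72, and CDKN2A, at 6300 and 5967 CP20M in MPP89, is dark or nearly so in each sensitive line.

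The calls were spread unevenly over the chromosomes. On chromosome 19, 311 of 1285 tested genes were higher than every sensitive line, 24.2% beside 7.85% over all genes. Chromosome 14 followed with 13.9%, X with 13.2%, chromosome 6 with 12.2% and chromosome 8 with 11%. Chromosome 17 had the smallest share, 26 of 1093 (2.38%). Neighbouring genes may share copy number, which was not measured here, so they are not independent.

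**Figure D4:**
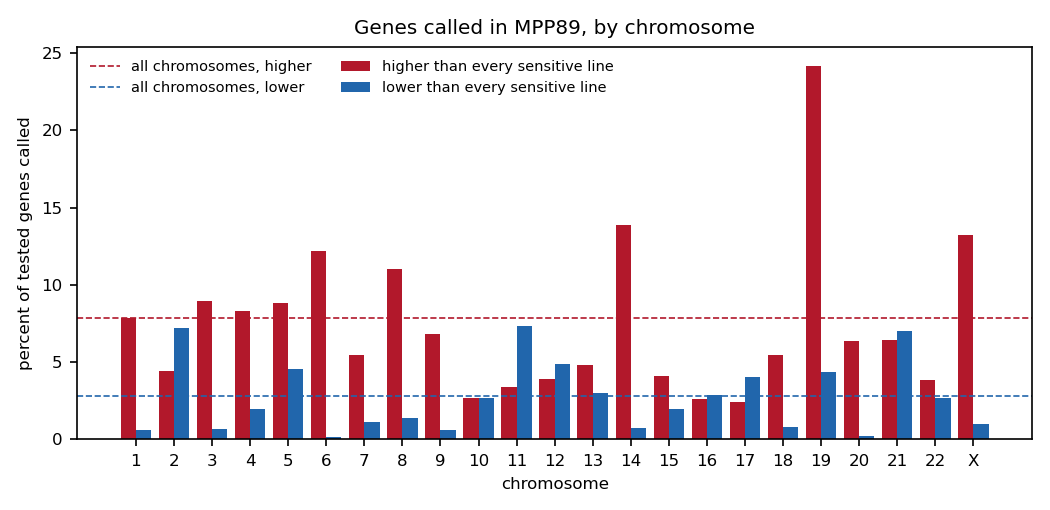
Percent of the tested genes of each chromosome that were higher (red) or lower (blue) in MPP89 than in every sensitive line, with the shares over all chromosomes, 7.85% and 2.82%, as dashed lines. Chromosome 19 reaches 24.2% higher, and its 4.36% of lower genes also exceed the average.

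Chromosome 19 was divided in itself. All 56 of its lower genes lay in the first 8 Mb, where they made up 56 of 228 tested genes (24.6%) and only 8 genes were higher. From 20 to 60 Mb, 259 of 741 genes (35%) were higher and none lower. The densest of the stretches looked at were 20 to 24 Mb with 39 of 50 genes higher (78%) and 36 to 38 Mb with 42 of 56 (75%). Their bounds were set with the positions of the calls known, so these shares are a description. Some genes, such as ZNF723 and ZNF729 at 20 to 24 Mb, entered the count only through their MPP89 values. Both stretches hold clusters of KRAB zinc finger genes, a large family of DNA-binding repressors, many of which silence transposable elements.

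Protein-coding genes whose symbol is ZNF and a number were therefore counted, by a rule chosen after the positions had been seen. MPP89 was higher than every sensitive line in 154 of 473 tested ZNF genes (32.6%) and lower in 1, ZNF597. On chromosome 19 the count was 123 of 240 (51.2%). On the other chromosomes it was 31 of 233 (13.3%), a count that fell to 15 without MPP89 replicate 2. Other protein-coding genes of chromosome 19 from 20 Mb on were higher in 91 of 403 cases (22.6%), and other protein-coding genes of the other chromosomes in 6.42%.

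Of the zinc finger genes with large margins, several came from the 20 to 24 Mb cluster. ZNF723 was at 823 and 1187 CP20M in MPP89 and at 0 in all sensitive libraries but 1 of MSTO-211H, which had 2. ZNF729 was at 259 and 447 CP20M and at 0 in all others. ZNF676 was at 425 and 620 CP20M, and ZNF208 at 416 and 677, with at most 72 in H2452 and 2 elsewhere. ZNF560, at 9 Mb, was at 413 and 382 CP20M and at 0 in all sensitive libraries. ZNF404, also outside that cluster, was at 696 and 926 CP20M against 0 to 80. The members of this family resemble each other closely, and the counting could split or drop reads that match several of them.

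**Figure D5:**
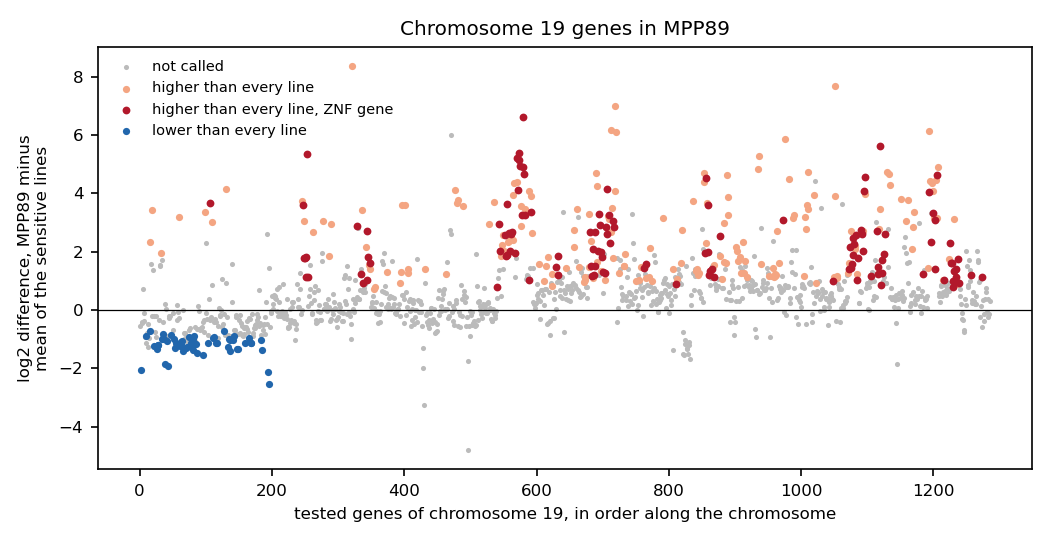
Log2 difference between MPP89 and the mean of the sensitive lines, on the log2(CP20M + 10) scale, for the tested genes of chromosome 19 in their order along the chromosome, coloured by call and with ZNF genes in dark red. The lower genes (blue) lie only at the start of the chromosome, and the ZNF genes form clusters above 0.

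Lower genes were also grouped elsewhere, in stretches whose bounds were set with the positions of the calls known. Between 70 and 86 Mb of chromosome 11, 33 of 109 tested genes (30.3%) were lower than every sensitive line and none was higher. In the 6 Mb of chromosome 2 that start at 96 Mb the count was 15 of 51 (29.4%), again with none higher. CCND1, just before the chromosome 11 stretch, was lower too.

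In the lists of the pocket proteins, their cyclins and kinases and the CDK inhibitors, 7 of 20 tested genes were called in either direction. RB1 and CCND1 were lower than every sensitive line, and CDKN2A, CDKN2B, CDKN1C, CCNE1 and CCNA1 were higher. The background was 7.85% higher and 2.82% lower. CDKN2A and CDKN2B are deleted in each sensitive line according to the study, so their calls could be foreseen from the genotype. The count is therefore no result about these lists as a group. RB1 was at 177 and 226 CP20M in MPP89 and at 553 to 2841 in the sensitive libraries (difference to H2052 −1.74, SE 0.19, adjusted p = 1.40e-05). Its relatives RBL1 and RBL2 were not called, and RBL2 was at 895 and 1135 CP20M against 1142 to 5142. CCND1 (cyclin D1) was at 2656 and 2492 CP20M, below the 5066 to 31753 of the sensitive libraries (difference to H2452 −1.14, SE 0.31, adjusted p = 0.00645). CDK4, CDK6, CCND2 and CCND3 were not called. CDK4 was at 2800 and 2086 CP20M against 2742 to 4597, and CDK6 at 3555 and 3505 CP20M lay between the lines.

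Of the 5 tested E and A cyclins with CDK2, CCNE1 (cyclin E1) was higher, at 474 and 440 CP20M against 72 to 231. CCNA1, a cyclin A known mainly from germ cells, was also higher, at 702 and 451 CP20M against 3 to 177. CDKN1C (p57) was called at 456 and 433 CP20M against 28 to 302, with a difference of 1.07 to MSTO-211H (SE 0.37, adjusted p = 0.026). That call was lost without either MPP89 library, without H2052 replicate 1, where the difference was 0.54, and without MSTO-211H replicate 2 or 3. CDKN1B, CDKN1A, CDKN2C and CDKN2D were not called. CDKN1A (p21) was at 532 and 381 CP20M in MPP89, above the 112 to 169 of H2452 and below the 4222 to 9192 of the other lines. None of 10 E2F and DP genes, 2 of 42 DNA replication genes (POLD1 and POLE2) and 1 of 28 mitosis genes (TTK) were higher than every sensitive line, and none of them was lower, beside backgrounds of 7.85% and 2.82%. Each of these 3 calls was lost without one or the other MPP89 library.

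Hippo pathway genes, which restrain the coactivator YAP, are often altered in MPM. Of 18 tested, TEAD2 and TEAD3, which encode DNA-binding partners of YAP, were higher and WWC1 was lower. NF2, the gene of merlin, was at 819 and 699 CP20M in MPP89, above the 407 and 305 of H2052 and far below the 4022 to 16708 of the other lines. LATS2 was at 0 in both H2052 libraries and at 1639 and 1459 CP20M in MPP89, near MSTO-211H. Among 23 YAP and TEAD targets, TGFB2 and CCN2 (connective tissue growth factor) were higher and MYOF and FJX1 lower. The background was 7.85% higher and 2.82% lower, so that with 1 to 2 calls in each direction these counts say nothing about the pathway as a whole.

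Ligands and receptors differed in single members. EGFR was at 2626 and 1821 CP20M in MPP89 against 7726 to 19317 (difference to H2052 −1.93, SE 0.24, adjusted p = 3.27e-05), the only one of 41 receptor tyrosine kinases that was lower. FLT1, KIT, TEK and DDR1 were higher. These 4 and 1 of 41 genes are near the background shares of 7.85% and 2.82%, and with the 9-day libraries alone 2 were higher. KIT, the stem cell factor receptor, was at 396 and 447 CP20M and reached 289 in H28 (adjusted p = 0.0494). Of 15 WNT ligands and antagonists, WNT6, WNT2 and WNT5A were higher. WNT5A, a ligand of non-canonical WNT signalling, was at 5455 and 4736 CP20M against 228 to 765. Among 12 TGF-beta family ligands, BMP4, TGFB2, GDF6, BMP8B and TGFB3 were higher, with BMP4 at 1096 and 2024 CP20M against 2 to 109. This count was 3 without MPP89 replicate 2, H2452 replicate 1 or H2452 replicate 3, and GDF6 at 349 and 303 CP20M overlapped with H2452 replicate 2 at 330.

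The following lists had few calls, most of them near the background of 7.85% higher and 2.82% lower, and single members are given without a statement on their lists. Of 22 chemokines and cytokines, CCL28, CCL5, IL11 and CXCL12 were higher, and of 9 immune checkpoint ligands, PDCD1LG2 (PD-L2) and PVR. Of 27 HOX genes, HOXA7, HOXA13 and HOXC13 were higher, each at no more than 289 CP20M in MPP89. The apoptosis genes BNIP3 and BID were the only BCL2 family members called, both lower, among 16 tested. FANCE, FANCM and XRCC3 were higher among 26 homologous recombination genes, ASXL1 higher and OGT lower among 10 genes of the BAP1 complex, JARID2 higher among 16 polycomb genes and MGA higher among 11 genes of the MYC network. None of 20 NRF2 targets, 8 mismatch repair genes, 5 MHC class II genes or 4 metallothioneins was called. Beside the losses given above, the calls of CLDN1, XRCC3 and LAMC1 were lost without either MPP89 library, those of OGT, PDCD1LG2 and ITGA5 without MPP89 replicate 1, and those of WWC1, CXCL12 and FJX1 without MPP89 replicate 2. KIT and GDF6 were also lost without either MPP89 library. With the 9-day libraries alone, the calls of POLE2, OGT, CLDN1, ITGA5, FLT1, KIT, GDF6, PDCD1LG2, FANCM, XRCC3 and DCN were lost (adjusted p = 0.0562 to 0.234, limma), which left 1 of 26 homologous recombination genes called. Among the sensitive libraries, leaving out H2052 replicate 1 ended the calls of DCN, PVR and KIT. Leaving out H2052 replicate 2 ended those of CLDN1, OGT, PDCD1LG2, XRCC3, POLE2 and KIT. Leaving out 1 library of H2452, H28 or MSTO-211H ended calls of ITGA5, WWC1, POLE2, LAMC1, TTK, KIT and GDF6.

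Over all lists, 85 of 584 tested genes were higher than every sensitive line and 14 lower, beside 7.85% and 2.82% of all tested genes.

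The comparison was repeated in the libraries treated with 1 µM palbociclib, again 2 of MPP89 and 11 of the sensitive lines, which are other libraries of the same experiments. MPP89 was higher than every sensitive line in 12.4% of 16759 genes (2079) and lower in 2.71% (455). Under median-of-ratios scaling, these counts were 1526 and 776. Of the 1325 genes higher in DMSO, 1047 were also higher under palbociclib (79% of the DMSO genes and 50.4% of the palbociclib genes). Of the 475 lower genes, 246 were lower again (51.8% and 54.1%), and no gene changed direction. With the drug, 22 of 42 DNA replication genes and 24 of 28 mitosis genes were higher in MPP89 than in every sensitive line, compared with 2 and 1 in DMSO. Interferon-stimulated genes numbered 15 of 38, and collagens 2 of 20. The summed level of the interferon-stimulated genes in MPP89 was 86057 and 115233 CP20M with palbociclib.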

How the data were processed

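RNA-seq libraries of DMSO-treated and palbociclib-treated cells were compared. The authors prepared directional libraries, aligned the read pairs to GRCh38 with STAR, obtained counts of Ensembl genes from HTSeq and expressed them as CP20M. The deposited values are a normalised score, rounded up to whole numbers, and not counts, so no count model was used. Columns of other lines were used only where named.

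A linear model with a coefficient per line was fitted to log2(CP20M + 10) of all 13 DMSO libraries in limma 3.58.1 (R 4.3.3), with moderated variances that follow the mean level. The fit was tested on simulated data. Genes under 100 CP20M in every library were left out. The threshold was an FDR of 0.05 within each comparison, and a fold change above 1.5. The study describes the RNA-seq replicates of a line as independent experiments. The sample labels do not say whether they were separate cultures.

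Named genes were the members of the pRb axis lists, the 12 protein-coding genes furthest above and the 12 furthest below every line with no overlap of libraries, up to 4 called members of each other list, and genes at 0 in a whole group. Members shown for contrast (COL1A2, KRT8, KRT18, KRT19, MTAP, NF2, LATS2, BST2, IFIT3, MSLN, WT1, EPCAM, LOXL1 and the like) and further ZNF genes were named with their values known. Results of some genes and of 1 list are not reported here. The comparison and the gene lists were chosen with earlier results of these data known. The contractile and germ cell lists, the ZNF rule and the bounds of the chromosome stretches were set after the values had been seen.

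Alternatives tried were the replicate number as a block, an offset of 1 or 50, a filter over all 33 libraries or none, scaling by median of ratios or by upper quartile, variances without the mean trend, the 9-day libraries alone, and leaving out each library or line. Positions are from GENCODE 44 (GRCh38), which matched 57532 genes, and promoters from RefSeq (GRCh38). Figures were drawn with matplotlib 3.10.9.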

Additional observations from a re-analysis of the deposited data

How the results depend on the processing

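Without 1 library at a time, the genes higher than every sensitive line numbered 993 to 1343 and the lower genes 399 to 510. The lowest counts were those without MPP89 replicate 2, where 948 of the 1325 and 346 of the 475 genes were called again. With no filter the higher genes numbered 2273, those above MSTO-211H 6793 and those under palbociclib 3438, from 43899 tested genes in DMSO. Fewer lines to pass gave 788 lower genes without the line H2052 and 793 without the line H28. Median-of-ratios scaling gave 1204 higher and 601 lower genes in DMSO, and 776 lower genes under palbociclib, and the cause was not tested. CDK6, which was not called, was 0.30 below the mean of the sensitive lines on the log2 scale and 0.21 above it without the line H28 (limma, adjusted p = 0.191). None of the 99 named called genes changed direction under any alternative, and calls were most often lost by KIT, TTK, CDKN1C, GDF6 and LAMC1. With the replicate number as a block, 1329 genes were higher and 484 lower, KIT, GDF6 and LAMC1 lost their calls, TGF-beta family ligands fell from 5 to 3 calls, and E and A cyclins with CDK2 rose from 2 to 4. Same-numbered libraries of different lines deviated from their line means with a correlation over genes between −0.046 and 0.359 (median 0.17, over 0.1 in 20 of 23 pairs). For different numbers the median was −0.111. Deviations from a line mean cancel out within the line, so both medians are tied to each other and the pairs are not independent. The labels name no shared batch, and the main fit used no block. Whether same-numbered libraries shared an experiment was not tested. All calls rest on 1 resistant line with 2 libraries, and levels under about 10 CP20M come from few reads.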

Other observations

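Some genes normally confined to germ cells were expressed in MPP89. The list of 30 such genes was drawn up after ZFP42 and TDRD9 had been seen, and most of it, 21 genes, stayed under 100 CP20M in all 13 libraries. Of 9 tested, 6 were higher than every sensitive line and none lower (limma), beside 7.85% and 2.82% of all tested genes. All 6 reached 100 CP20M only in MPP89, so they entered the test through the line where they are high. Their count is therefore no result about germ cell genes as a group. TDRD9, a helicase of the piRNA pathway, was at 1571 and 1636 CP20M and at most 12 in the sensitive libraries. HENMT1, which methylates piRNA ends, was at 435 and 531 CP20M against at most 2. MAGEB17, a cancer-testis antigen, was at 895 and 636 CP20M against at most 3, and SYCP2, of the synaptonemal complex, was at 338 and 409 CP20M against 9 to 74. MAGEA6 was at 185 and 191 CP20M against at most 11, and its reads may be shared with near-identical MAGEA genes. Other members did not follow MPP89. PRAME was highest in MSTO-211H, at 469 to 600 CP20M beside 308 and 281, and MAGEB2 was found almost only there, at 990 to 1110 CP20M.

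MeT-5A, the other resistant line, consists of mesothelial cells immortalised by SV40 and had 1 untreated and 1 DMSO library. Both were above all 11 sensitive libraries in 16.6% of all tested genes and below them in 6.23%, where MPP89 had 14.2% and 7.57%. Both lines are set here against the same sensitive libraries, so the overlap of their genes is not given. The interferon-stimulated genes summed to 22046 and 22134 CP20M in MeT-5A.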
